A study of Chlamydomonas reinhardtii with 8 samples.

Results

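Among 17737 genes measured in the green alga Chlamydomonas reinhardtii, 101 genes without a symbol were expressed in zinc-deficient cells, stood at a low level 1.5 h after zinc had been returned, and were expressed again at 24 h. They were chosen by deposited values at 3 of the 8 conditions: at least 5 FPKM at 0 h and at 24 h, and at each of these times at least 3 times the value at 1.5 h. FPKM relates the fragments of a gene to the length of its transcript and to the size of the library. Of 14981 genes named by an identifier alone, 3576 passed the status and level parts of this rule, and the 101 members were 2.82% of those. Among genes with a symbol, 44 of 1614, or 2.73%, met the same thresholds, so the dip was about as frequent in named as in unnamed genes. No gene table used here gives the members a name or a role.

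The cells were strain CC-4532, grown in acetate medium under continuous light. The 0 h condition was the state after a repeated culture round without added zinc, and cells were collected 1.5 h, 3 h, 4.5 h, 12 h and 24 h after 2.5 µM zinc had been given back. Early and late zinc-replete cultures were the remaining conditions, and the labels do not say which of them matched the deficient culture in age. No condition had the same handling or time course without zinc, so an effect of zinc and one of handling or time cannot be told apart.

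Zinc is a cofactor of many enzymes and of zinc finger proteins, and algae short of zinc raise plasma membrane importers of the ZIP family. When the metal returns, these importers are shut off and the cell redistributes zinc among its proteins and stores. Copper handling is tied to zinc status in this alga, since zinc-deficient cells accumulate copper.

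For each gene, every condition is represented by a single FPKM and its deposited confidence interval. No replicate values were available for the differences, and none carries a p-value. In the members, the median distance from the value to its bound was between 14.6% of the value at 12 h and 31.0% in late replete cells. A call required a log2 ratio of at least 1 in size, with 1 FPKM added to both values, and intervals that did not overlap. "Rose" and "fell" refer to calls, and so do counts and shares of genes given as higher or lower, unless values are named as such. Higher or lower than both replete conditions means called in that direction against each of them. All 101 members passed the filter on a mean of at least 1 FPKM because of the levels the rule asks for. The values are shares of the messenger RNA of a culture, so fewer cells with a transcript and less of it per cell cannot be told apart. The summed FPKM was lowest at 0 h (720944) and highest in the early replete culture (886096).

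The dip itself is a description of the values that chose the members. The level at 1.5 h was between 0.531 and 194 FPKM with a median of 4.45, against medians of 20.0 at 0 h and 20.8 at 24 h. The smaller of the 2 folds, from 0 h or 24 h to 1.5 h, had a median of 4.10 and ran from 3.03 to 34.8. In all 101 members the bounds at 1.5 h lay below those at 0 h and at 24 h. All 101 were therefore called lower at 1.5 h than at 0 h, where 9.24% of all genes tested were lower and 12% higher, and higher at 24 h than at 1.5 h, where 9.87% were, and nothing is read from these shares. At the fold limit, Cre02.g102450 (7.20, 2.38 and 9.43 FPKM at 0, 1.5 and 24 h) and Cre16.g678600 (7.00, 2.09 and 6.39) lay just inside. Cre10.g450500 (22.1, 3.91 and 11.7) and Cre12.g534500 (16.5, 5.53 and 18.4) lay just outside, at folds of 2.99 and 2.98. At the level limit, g8349 lay just inside at 5.18 FPKM and Cre16.g665300 just outside at 4.97.

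The members differed in how long they stayed low. In 95 of 101 members 1.5 h was the lowest of the 8 conditions, in 4 it was 3 h and in 2 it was 4.5 h, a count that the rule largely fixes. Each gene's level was then set against the geometric mean of its own 0 h and 24 h values, which the rule used, so these percentages are a description. The median member stood at 21.2% at 1.5 h, 63.9% at 3 h, 91.9% at 4.5 h and 117% at 12 h. The range was wide, from 2.64% to 194% at 3 h and from 2.02% to 313% at 4.5 h. At 3 h, 35 members were still under 50%, 47 lay between 50% and 100%, and 19 were at or above 100%. At 4.5 h these counts were 22, 32 and 47, and 24 of the last group stood at 150% or more.

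**Figure D1:**
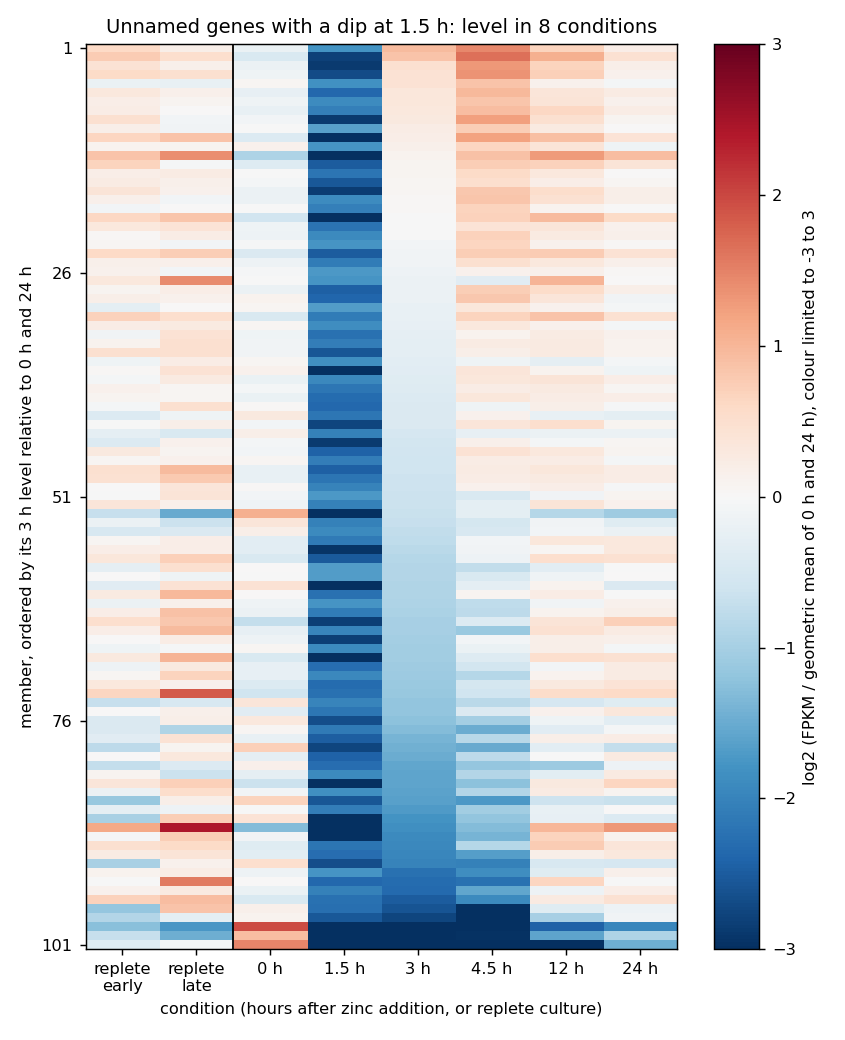
Level of each of the 101 members (rows, ordered by the 3 h level) in the 8 conditions (columns), as log2 of FPKM over the geometric mean of 0 h and 24 h, red above and blue below that mean, with the colour limited to -3 to 3. The upper rows pass 100% at 4.5 h, the lowest rows stay dark blue through 4.5 h, and 95 rows have their lowest value at 1.5 h.

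Step by step, 68 members rose from 1.5 to 3 h and 0 fell, where 4.3% of all genes tested rose and 0.715% fell. This step shares its 1.5 h value with the rule. From 3 to 4.5 h, 0 members were called in either direction, where 0.253% of all genes rose and 0.0958% fell, although the median log2 ratio of the members was 0.53 against -0.04 over all genes. From 4.5 to 12 h, 19 members rose and 0 fell, where 1.74% of all genes rose and 1.27% fell. The 4.5 h value was higher than the 12 h value in 33 members, and 29 members had their highest value of all 8 conditions at 4.5 h. These counts were not taken over all genes, so nothing is read from them. The median log2 ratio of 12 h to 4.5 h was 0.26 in the members. It was -0.18 in the 5190 genes that pass the status and level parts of the rule. From 12 to 24 h, 1 member rose, Cre08.g372200, and 0 fell, where 0.209% of all genes rose and 0.454% fell.

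The members with the highest relative level at 3 h passed their starting level within that time and stood higher still at 4.5 h. Cre05.g244950 (chromosome 5, 1303089 to 1305051) was at 92.2 FPKM in early replete, 76.9 in late replete and 40.0 in deficient cells, and over the 5 resupply times at 7.80, 98.7, 170, 113 and 74.2 FPKM. Its bounds at 4.5 h, 136 to 205 FPKM, lay above those of both replete conditions and of 0 h. Cre17.g741000 (chromosome 17, 6036284 to 6038575) was at 119 and 98.5 FPKM in replete and 78.7 in deficient cells, and then at 12.0, 124, 216, 141 and 99.2. In both genes 1.5 h was the lowest and 4.5 h the highest condition.

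Cre02.g102450, a weakly expressed gene, was at 12.5 and 9.32 FPKM in replete and 7.20 in deficient cells, and at 2.38, 16.0, 22.5, 13.0 and 9.43 FPKM over the 5 resupply times. Cre01.g004700 was at 10.3 and 9.64 FPKM in replete and 6.28 in deficient cells, and then at 1.08, 9.36, 17.5, 11.3 and 7.61. Cre06.g258850 (31.9 and 21.3 FPKM in replete and 21.6 in deficient cells) went from 3.13 at 1.5 h to 53.8 at 4.5 h. Against 0 h, 13 members (12.9%) were higher at 4.5 h and 21 (20.8%) lower, where 10.2% of all genes were higher and 6.51% lower. Among the 5190 genes that pass the status and level parts of the rule, 13.6% were higher and 6.47% lower. The share of higher members thus lay near the background, and the 0 h value was used by the rule. All 13 were among the 68 that rose between 1.5 and 3 h. The rule ties the 0 h and 1.5 h values of these calls together, so nothing is read from this overlap.

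**Figure D2:**
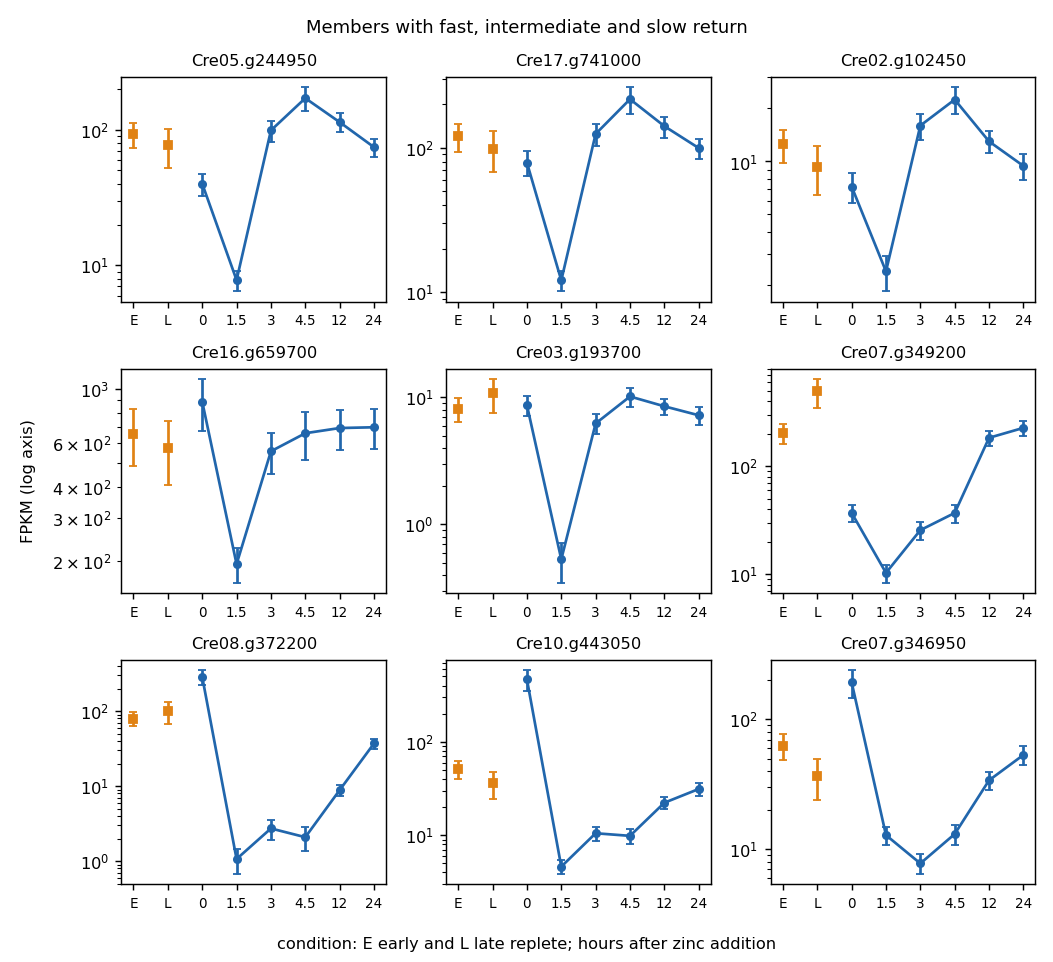
FPKM (log axis, a different range in each panel) of 9 members in the early (E) and late (L) replete conditions (orange) and from 0 to 24 h after zinc addition (blue). Points are the deposited values and bars their deposited bounds. The top row is highest at 4.5 h, the middle row shows 3 members that differ in when they returned, and the bottom row is high at 0 h (10.7, 3.88 and 3.19 times the replete mean in Cre10.g443050, Cre07.g346950 and Cre08.g372200) and still low at 4.5 h.

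The deepest dips were found in genes of different courses. Cre03.g193700 (chromosome 3, 6342635 to 6347304) was at 8.10 and 10.8 FPKM in replete and 8.69 in deficient cells. It stood at 0.531 FPKM (bounds 0.347 to 0.714) at 1.5 h and at 6.23, 10.2, 8.50 and 7.23 FPKM afterwards, a fold of 13.6 from 24 h. Apart from 1.5 h, the values of this gene kept within 6.23 and 10.8 FPKM. The gene g8365 had a like course at 11.3 and 16.4 FPKM in replete cells, 14.3 at 0 h, 2.06 at 1.5 h and 10.3, 16.7, 14.4 and 15.7 FPKM later. In contrast, g8251 (6.97 and 11.9 FPKM in replete, 6.65 in deficient cells) was at 0.700 FPKM at 1.5 h and still at 1.91 and 2.71 FPKM at 3 and 4.5 h, before 11.3 at 12 h. Cre01.g022650 (11.6 and 37.5 FPKM in replete and 30.0 in deficient cells) was at 2.04, 6.56 and 9.95 FPKM at 1.5, 3 and 4.5 h.

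Abundant transcripts were among the members as well. Cre16.g659700 (chromosome 16, 2350939 to 2352908), the most abundant at 0 h, was at 655 and 573 FPKM in replete and 886 in deficient cells, and at 194, 557, 659, 692 and 697 FPKM over the resupply times. The 1.5 h value stood alone, since the next lowest was 557 FPKM. Cre05.g233950 was at 577 and 623 FPKM in replete and 482 in deficient cells, and it was slow, at 156, 112, 146, 414 and 588 FPKM. Cre10.g433950 was at 241 and 266 FPKM in replete and 192 in deficient cells, and at 54.1, 44.1, 75.3, 201 and 256 FPKM after zinc return. Both of these genes had their lowest value at 3 h. Cre10.g452350 was at 382 and 613 FPKM in replete and 293 in deficient cells, and then at 78.3, 173, 193, 355 and 378.

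At 0 h, 4 members were higher than both replete conditions and 6 were lower, where 5.58% and 5.76% of all genes tested were. With 3.96% and 5.94% of the members, these shares lie near the background, and the 0 h value was used by the rule. The 4 higher members made up the extreme of the set. Cre08.g372200 (chromosome 8, 2529268 to 2530757) was at 79.6 and 99.6 FPKM in replete and at 286 (bounds 221 to 352) in deficient cells. It stood at 1.07 FPKM (bounds 0.670 to 1.46) at 1.5 h, a fold of 269 from 0 h, and at 2.73, 2.08, 8.86 and 37.1 FPKM afterwards. It did not reach the level of either replete condition by 24 h, and it was the only member called lower than both at 12 and at 24 h, where 0.358% and 0.279% of all genes were.

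Cre10.g443050 (chromosome 10, 3253453 to 3256956) was at 50.9 and 35.8 FPKM in replete and 465 (bounds 346 to 584) in deficient cells. It then stood at 4.61, 10.5, 9.85, 22.3 and 31.2 FPKM, so all 5 resupply values lay under both replete values. Cre07.g346950 was at 62.9 and 36.9 FPKM in replete, 194 in deficient cells, and 12.8, 7.77, 13.1, 34.0 and 53.3 FPKM after zinc return. In these 3 genes, and in the fourth, Cre10.g436500, the level went from above to below both replete levels within 1.5 h. Cre10.g436500 was at 19.8 and 11.2 FPKM in replete and 67.3 in deficient cells. After zinc return it stood at 3.06, 20.2, 26.1, 17.7 and 15.4 FPKM, and unlike in the other 3 its 3 h value was already above both replete values. The slow member g13210, at 3.10 and 4.68 FPKM in replete and 6.13 in deficient cells, was at 0.988, 0.852 and 0.710 FPKM at 1.5, 3 and 4.5 h and at 2.90 and 5.38 FPKM later.

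The 6 members lower than both replete conditions at 0 h were Cre07.g349200, g2197, g2889, g15196, g15197 and Cre02.g075000, of which the last was named after its values were seen. Cre07.g349200 was at 203 and 495 FPKM in replete and 37.05 in deficient cells, and at 10.3, 25.6, 36.9, 183 and 227 FPKM after zinc return. Here the dip lay on top of a low start. The 4.5 h value was close to that of 0 h, and the 12 h value stood above it. The gene g2197 was at 42.2 and 96.7 FPKM in replete and 17.8 in deficient cells, then at 5.77, 12.3, 17.9, 39.4 and 41.1. The gene g2889 was at 244 and 301 FPKM, 106 FPKM, and then 24.4, 86.9, 130, 227 and 282 FPKM.

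Compared with the replete cultures, which the rule did not use, a part of the members remained low at 3 and 4.5 h. At 3 h, 27 of 101 (26.7%) were lower than both replete conditions and 0 were higher. Over all genes tested, 2.71% were lower and 2.99% higher, and among the 5190 genes that pass the status and level parts of the rule, 2.54% were lower and 3.87% higher. The median of the members, as the mean of both log2 ratios, was -0.75 against 0.20 in those 5190 genes. A 4-fold instead of a 2-fold limit left 7 of the 27, and against the late replete condition alone 41 were lower, where 5.48% of all genes were. The 3 and 4.5 h samples came after the 1.5 h sample in the same treatment, so these counts are not independent of the dip.

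Examples were spread over all levels. Cre13.g575700, outside the naming rule and chosen after its values were seen, was at 40.9 and 43.8 FPKM in replete cells and 7.70 FPKM at 3 h. Cre05.g233950 was at 112 FPKM against 577 and 623 (log2 ratios of -2.35 and -2.46), and Cre08.g372200 at 2.73 against 79.6 and 99.6 (-4.44 and -4.76). Cre07.g349200 was at 25.6 FPKM against 203 and 495 (-2.94 and -4.22).

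At 4.5 h, 16 members (15.8%) were lower than both replete conditions, where 1.33% of all genes and 1.08% of the 5190 were. Of these, 15 were among the 27 of 3 h, which is 93.8% of the later and 55.6% of the earlier list. All 16 then rose between 4.5 and 12 h, but both calls use the same 4.5 h value, so nothing is read from this. In the other direction, 1 member was higher than both, where 1.14% of all genes were. It was Cre07.g339050, named after its values were seen, at 41.3 FPKM against 19.9 and 19.8, and with either rescaling of the conditions its call ended. At 12 h, 1 member was called lower than both and 0 were called higher, where 0.253% of all genes were higher. The median of the members was 0.06 against 0.01 in the 5190 genes. At 24 h the same gene was called lower than both and 0 were called higher, where 0.0785% of all genes were higher.

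**Figure D3:**
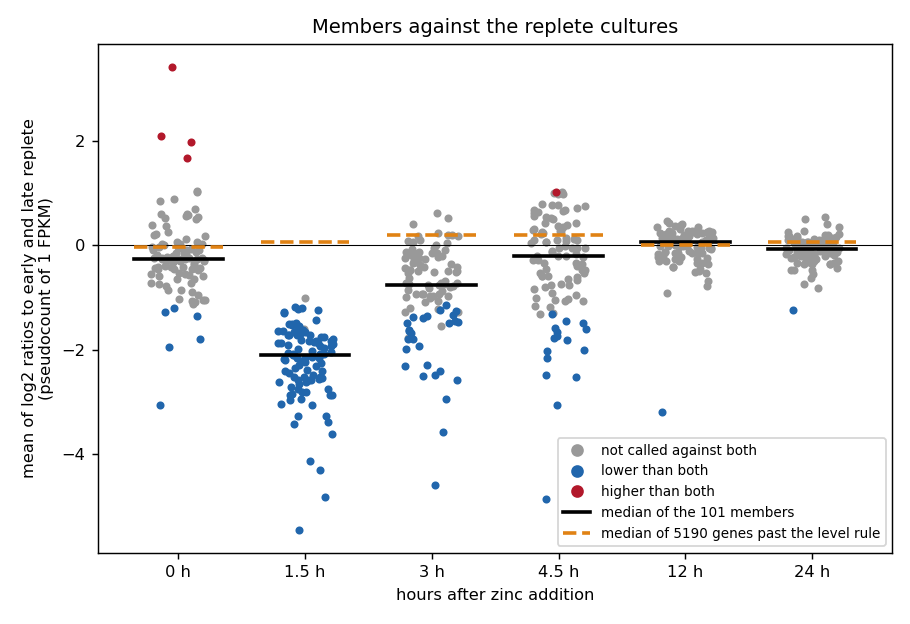
Each point is 1 of the 101 members at 0 h or at 1 of 5 times after zinc addition, as the mean of its log2 ratios to the early and late replete conditions (pseudocount of 1 FPKM). Blue and red points are called lower or higher than both, black bars are the members' medians, and orange dashed bars are medians of the 5190 genes that pass the status and level parts of the rule. The members' median is -2.10 at 1.5 h, -0.75 at 3 h, -0.21 at 4.5 h and 0.06 at 12 h.

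At 1.5 h, 99 members were also called lower than both replete conditions, where 9.2% of all genes tested were lower. These calls share their 1.5 h value with the rule, so nothing is read from the count. The 4 members that were higher in deficiency were among the 99. The other 2 were g1910, not called against late, and Cre12.g496150, not called against early replete cells.

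Between the replete cultures, 7 members were higher in late than in early cells and 0 were lower, where 0.741% of all genes were higher and 0.689% lower. Among the 5190 genes past the level rule the shares were 0.617% and 1.04%. The median log2 ratio of late to early was 0.15 in the members and -0.11 in those 5190 genes. The late value was the higher one in 68 of 101 members, a count not taken over all genes, so nothing is read from it. A 4-fold limit left 0 of the 7, and rescaling to the same total FPKM gave 12. The 7 were Cre12.g496150, Cre01.g022650, g3755, Cre07.g349200, g2197, Cre09.g391700 and Cre09.g409650, of which 4 (Cre12.g496150, g3755, Cre09.g391700 and Cre09.g409650) were named after their values were seen. Cre12.g496150 was at 3.04 FPKM in early and 12.4 in late cells, with 7.52 FPKM at 0 h and 1.42, 1.13, 0.637, 5.27 and 6.11 FPKM after zinc return. The gene g3755 was at 9.48 and 28.2 FPKM in replete cells, 9.63 at 0 h, and 1.85, 1.92, 2.03, 15.0 and 9.42 FPKM after it. Of the 7, 3 were among the 27 members low at 3 h.

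Members lay on 16 chromosomes and 1 scaffold, with at most 12 on a chromosome (chromosome 12), and spanned a median of 3702 bp against 3596 bp in unnamed genes past the level rule. Several of them sat side by side. Of 202 places next to a member, 80 held a gene that passed the status and level parts of the rule, and 8 of these (10.0%) met the whole dip rule, symbols aside, against 145 of 5190 genes (2.79%). Each adjacent pair of members counts for 2 of the places. The table gives no strand, so the orientation of the pairs is not described.

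The longest run was of 3 genes on chromosome 14. The gene g15196 (3495069 to 3497364) was at 87.0, 101 and 38.4 FPKM in early replete, late replete and deficient cells, and at 4.45, 56.4, 91.1, 109 and 84.0 FPKM after zinc return. Its neighbour g15197 (3497549 to 3502673), 184 bp away, was at 33.2, 48.5 and 9.72 FPKM, and then at 1.09, 19.9, 34.1, 44.3 and 34.9. Both were lower in deficiency than in either replete condition, lowest at 1.5 h and, among resupply times, highest at 12 h. The gene g15198, 131 bp further on, shared the dip at a lower level, at 7.58, 9.51 and 7.90 FPKM and then 2.51, 4.49, 5.07, 8.05 and 9.35, but was not called lower at 0 h.

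On chromosome 13, Cre13.g567900 (28.6 and 30.5 FPKM in replete and 32.1 in deficient cells, then 8.28, 15.1, 26.9, 34.9 and 30.1) lay 473 bp from Cre13.g567950 (194 and 215 FPKM in replete and 152 in deficient cells, then 42.8, 85.3, 142, 213 and 246). A pair of members lay beside genes with a symbol that met the same thresholds. Cre16.g672750 was at 67.7, 70.5 and 60.9 FPKM and then 16.0, 48.9, 72.4, 64.2 and 56.1. It lay 736 bp from GMP1, which by its name encodes GDP-mannose pyrophosphorylase, an enzyme that makes the mannose donor for glycosylation. GMP1 was at 58.5, 48.0 and 41.3 FPKM and then 4.52, 34.1, 68.9, 68.8 and 51.4. The gene g6353 was at 43.5, 74.3 and 73.7 FPKM and then 6.90, 29.5, 44.7, 58.7 and 40.6. It lay 100 bp from GPM1, named for phosphoglycerate mutase of glycolysis, at 153, 146 and 156 FPKM and then 45.9, 62.0, 116, 155 and 182.

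**Figure D4:**
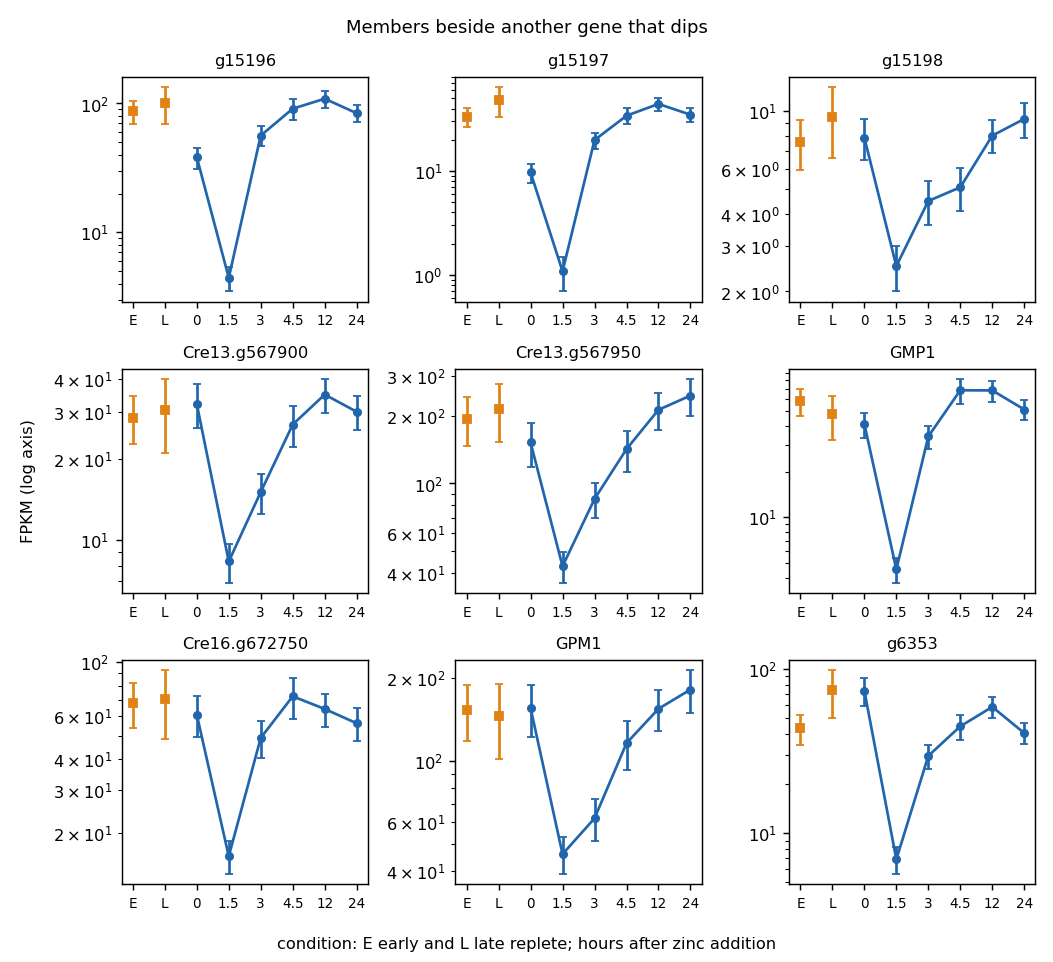
FPKM (log axis, a different range in each panel) of the 7 members that lie beside another gene meeting the thresholds and of the genes with a symbol beside 2 of them, GMP1 and GPM1, in early (E) and late (L) replete cells (orange) and from 0 to 24 h after zinc addition (blue), with the deposited bounds as bars. In all 9 panels the lowest value is at 1.5 h.

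The 44 genes with a symbol were selected by the same values, so their course is again a description. All 3 genes of the SEC61 translocon, the channel through which proteins enter the endoplasmic reticulum, were among the 44, and they were singled out after their values were seen. SEC61A was at 125, 112 and 67.1 FPKM in early replete, late replete and deficient cells, and at 12.5, 142, 234, 142 and 109 FPKM after zinc return. SEC61B was at 186, 148 and 88.6 FPKM and then at 20.1, 163, 248, 158 and 138. SEC61G was at 264, 226 and 140 FPKM and then at 26.3, 163, 319, 241 and 193. At 4.5 h they stood at 274%, 224% and 194% of their mean over 0 h and 24 h. SEC61A thus lay between the unnamed Cre05.g244950 (313%) and Cre17.g741000 (245%), near Cre02.g102450 (273%), and SEC61B and SEC61G lay below all 3. GTR25 had 219% at that time, and CRT2, named for calreticulin, a chaperone of the same compartment, had 169%.

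The slow members had counterparts as well. HYDA1, an iron hydrogenase of dark fermentation, was at 63.9, 99.2 and 146 FPKM and then at 10.2, 10.5, 9.53, 60.3 and 70.0. CTR2, a copper transporter, was at 5.21, 3.13 and 12.9 FPKM and then at 0.906, 0.781, 1.02, 2.54 and 5.25. TEF13 was at 96.5, 145 and 139 FPKM and then at 29.9, 5.59, 6.83, 61.3 and 108. At 4.5 h these stood at 9.42%, 12.4% and 5.58% of their mean over 0 h and 24 h, and the unnamed Cre08.g372200, Cre10.g443050 and Cre07.g346950 at 2.02%, 8.17% and 12.9%. The deepest dips among named genes were TBA1, a translation factor of a photosystem gene (30.1 FPKM at 0 h, 1.51 at 1.5 h and 24.3 at 24 h), and ACL1 (16.2, 1.46 and 22.7 FPKM). Starch synthase SSS3 (38.0, 3.59 and 24.4 FPKM) and branching enzyme SBE3 (118, 16.6 and 86.2 FPKM) dipped too, as did HCP3 (5.16, 0.644 and 5.75 FPKM) and PPD1 (18.1, 1.59 and 8.26 FPKM).

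Whole lists did not share the course. Of 10 fermentation genes found in the table, 9 passed the status and level parts of the rule and 2 met all of it, where 2.79% of the 5190 genes did. These were HYDA1 and PAT2, a phosphate acetyltransferase whose span another gene in the table shares. At 1.5 h, 5 of the 10 were lower than at 0 h and 0 higher, where 9.24% of all genes tested were lower and 12% higher, with a median log2 ratio of -1.10 against 0.02 over all genes. Of 7 copper genes, 6 passed these parts and 3 met the whole rule, beside the same 2.79%: CTR2, CRD1, a cyclase of chlorophyll synthesis, and CPX1, coproporphyrinogen oxidase. At 1.5 h, 6 of the 7 were lower and 0 higher, beside the same 9.24% and 12%, with a median log2 ratio of -1.95. CYC6, the copper-independent cytochrome, was at 0.0139 and 0.0372 FPKM in early and late replete cells and at 976 FPKM at 0 h. It stood at 88.1 FPKM at 1.5 h and 0.0402 at 24 h, near its replete values, and so did not return to its 0 h level. CRD1 was at 26.4 FPKM at 1.5 h and 198 at 24 h. CPX1 was at 45.4, 186 and 271 FPKM at 1.5, 3 and 4.5 h.

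**Figure D5:**
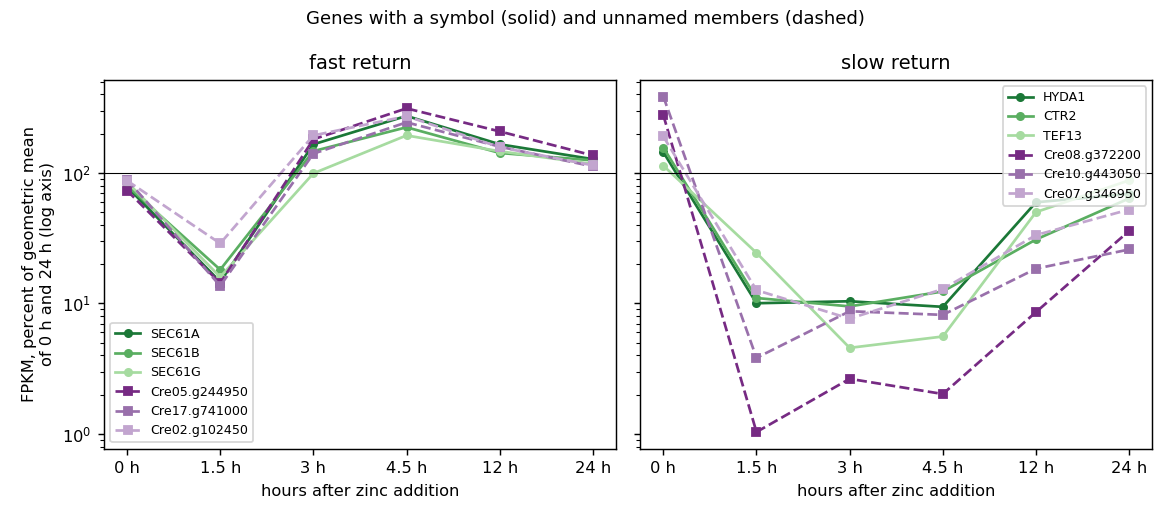
FPKM as percent of each gene's geometric mean over 0 h and 24 h (log axis) at 6 times, for 3 genes with a symbol (solid) and 3 unnamed members (dashed) with a fast return on the left and with a slow return on the right. On the left all 6 are highest at 4.5 h, between 194% and 313%, and on the right all 6 are at or below 12.9% at 4.5 h.

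Over the whole 44, 14 (31.8%) were lower than both replete conditions at 3 h and 0 higher, beside 27 (26.7%) of the 101 unnamed members. At 4.5 h, 6 (13.6%) were lower and 0 higher, beside 16 (15.8%) of the members. Over all genes tested, 2.71% were lower and 2.99% higher at 3 h, and 1.33% and 1.14% at 4.5 h. The median level of the 44 at 3, 4.5 and 12 h was 58.5%, 94.2% and 113% of the mean over 0 h and 24 h. In the members it was 63.9%, 91.9% and 117%. Named and unnamed genes with a dip thus had medians within 6 percentage points of each other at these times, and this difference was not tested.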

How the data were processed

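Messenger RNA of 8 conditions was sequenced after stranded library preparation, per the labels' protocols. The values are FPKM and their interval bounds, which the authors deposited as such per the file headers. The submitters' processing notes list TopHat2 and Cuffdiff without a version. The sources used here do not give the build, the confidence level, or how the 4 replicates that the design text names became a single value. Gene spans equalled those of assembly Chlamydomonas_reinhardtii_v5.5 in 98.6% of 11714 genes matched by locus tag (73 of 74 matched members), and that table holds 0 other symbols. Read depth could not be recovered: in 512 genes of low value, ratios between conditions shared no common step (at most 1.37% in a 0.01 log2 bin). The precision is that of the deposited bounds, whose coverage of culture variation is unknown.

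The rule, ratios with a pseudocount of 1 FPKM and calls were computed with pandas 2.3.3 on Python 3.11.15, tested on simulated data, and no p-value was computed. All 8 conditions were matched by name, and 0 value columns were left unused. The member rule, the gene lists and the calls were chosen with earlier results of these data known. Named were members at the extremes of 0 h level, dip, 3 h level and deficiency ratio (8, 8, 4 and 4, 4 and 4), those beside another gene that dips, those at the fold limit, and up to 12 genes with a symbol. SEC61B, TEF13, CRT2, GPM1 and the members described so in the text were named after their values were seen. The promoter and protein features planned were not analysed here. Alternatives were other folds, floors, pseudocounts, filters and 2 rescalings.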

Additional observations from a re-analysis of the deposited data

How the results depend on the processing

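The number of members was 257 at a fold of 2 and 54 at a fold of 4, and 206 with at least 1 FPKM at 0 h and 24 h. It was 72 with at least 10 FPKM, 101 where bounds must not overlap, 101 after median-of-ratios rescaling (99 of them shared) and 108 at equal total FPKM (100 shared). The reported calls were 27 at 3 h, 17 at 4.5 h (16 lower and 1 higher), 1 at 12 h and 7 between the replete conditions. At a fold of 4, 7 members were called at 3 h, 3 at 4.5 h and 0 between the replete conditions. At 4.5 h a pseudocount of 5 left 11 (all lower), and between the replete conditions the equal total gave 12. Against the late replete condition alone, an alternative chosen after seeing the data, 41 were called at 3 h, 36 at 4.5 h (30 lower and 6 higher) and 4 at 12 h, and against the early one alone 2 at 12 h. Under all other settings run, counts stayed within 1.5 times the reported ones. Cre02.g075000 shares its span with a gene of under 1 FPKM, and leaving it out gave 26 members lower at 3 h and a total of 16 at 4.5 h (15 lower and 1 higher). Equal totals shift log2 ratios to 0 h by up to 0.30 (early replete), and median-of-ratios factors by up to 0.09. No paired analysis was possible because the table holds 1 value per condition, so no replicate could be left out either. The 1.5 h dip rests on 1 condition.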
